A study of Schizosaccharomyces pombe with 4 samples.

Results

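In wild-type fission yeast (Schizosaccharomyces pombe) grown at 30 °C, the long nascent reads that crossed every annotated intron of a protein-coding gene were compared in 2 classes, all spliced and all unspliced. A read was taken when it reached at least 10 nt past both sites of each intron of the gene. It was all spliced when an alignment gap lay within 5 nt of both sites of each intron, and all unspliced when no gap of 20 nt or more lay in any of them. Of 2443 protein-coding genes with introns, 1621 had such reads in either library, 977 had them in both, and 68 had at least 10 in each. These 68 genes, of which 61 had a single intron, are the ones described gene by gene. The classes and the per-gene shares were set by this sorting and are given as description. The place of the 3′ and 5′ ends was not used in the sorting and was tested.

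The reads were Pacific Biosciences long reads of cDNA from nuclear RNA that had been depleted of polyadenylated and ribosomal RNA, with an adaptor ligated to the 3′ end. Replicate 1 was strain L972 with the genotype Wild-type h-. Replicate 2 was strain SP286 with the genotype prp5::KanMx-prp5-WT, h+, so that it carried a marker at prp5 and the other mating type. Both cultures came from single colonies grown at 30 °C in YES medium, with 1 library per strain, so that strain and library cannot be told apart. The 2 other libraries of the series, prp2-1 (leu1.32 prp2-C387Y, in a splicing factor gene) and L972 wild type, were both shifted to 37 °C for 2 h. They are quoted only for the named genes and for the share over all genes.

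Nascent RNA is RNA still held by the polymerase, so the 3′ end of a nascent read marks how far transcription had gone when the RNA was taken. Whether a given read here came from such RNA or from RNA already cut and released was not tested. The 3′ ends are therefore given as places of read ends. The spliceosome removes an intron by joining its 5′ splice site to a branch point adenosine and then to the 3′ splice site, and it can do so while the polymerase is still on the gene. A read that ends downstream of the annotated gene end comes from a transcript that had not been cut at or before that annotated end. The cleavage sites in use were not mapped here and may differ from the annotated end. The measure of splicing used here is the all-spliced share, the percentage of all-spliced among all-spliced plus all-unspliced reads.

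Replicate 1 held 123756 reads with a median span of 256 nt, and replicate 2 held 45318 reads with a median span of 436 nt. Replicate 1 gave 5629 all-spliced and 1922 all-unspliced reads, and replicate 2 gave 2170 all-spliced and 2098 all-unspliced reads. A gene had a median of 2 scored reads in each library, so most genes were too shallow to be placed. Of the alignment gaps of 20 nt or more, 91.9% in replicate 1 and 87.7% in replicate 2 matched an annotated intron. Intervals on shares are 95% Wilson intervals. They cover counting error only, since the reads passed through PCR without a molecular identifier in use, and reads of 1 library are not replicates of the condition.

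The introns printed here are those of the genes on which the results turn. In each, capitals mark the first 6 bases, the branch motif where one was found, and the last 3 bases. The motif searched on the sense strand was CTAAC, its variant CTAAT, or either with G as the middle base, and the one marked is the match nearest to the 3′ end within the 45 bases before the last 3. It was present in 75.2% of all 5185 annotated introns. The sequences were read from the RefSeq genome of build ASM294v3.
rpl8 intron (II:2045498-2045563, plus strand, mostly spliced in both libraries): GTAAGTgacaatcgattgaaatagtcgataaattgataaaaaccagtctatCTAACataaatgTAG
mcp7 intron (I:578587-578680, plus strand, mostly spliced in both libraries): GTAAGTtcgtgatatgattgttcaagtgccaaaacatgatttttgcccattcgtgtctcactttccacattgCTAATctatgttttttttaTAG
rps1202 intron (II:498544-498600, minus strand, 3′ ends differed between the classes in both libraries): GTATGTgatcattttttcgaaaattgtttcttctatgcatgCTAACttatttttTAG
rpl4102 intron (I:2853797-2853848, minus strand, 3′ ends differed between the classes in replicate 1): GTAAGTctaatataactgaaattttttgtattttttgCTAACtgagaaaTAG
rpl4101 intron (I:5402111-5402162, minus strand, the paralogue of rpl4102): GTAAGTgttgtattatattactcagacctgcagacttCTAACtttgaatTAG
rps2502 intron 2 (I:4208501-4208553, minus strand, of the gene at the low end of the shares): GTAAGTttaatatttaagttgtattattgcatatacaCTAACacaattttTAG
The first exon of rps2502 is shown with the intron that follows it, because its length bears on how reads of this gene were sorted. Here the capitals mark the exon, which ends with the start codon.
rps2502 exon 1 and intron 1 (I:4208795-4208856, minus strand): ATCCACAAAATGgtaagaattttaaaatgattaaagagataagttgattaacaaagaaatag
All introns shown lie between coding exons. The 12-nt exon of rps2502 is followed by an intron with no match to the motif in the window searched, whereas the other 6 introns shown each had one.

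All-spliced reads were the larger class in replicate 1 and were about level with all-unspliced reads in replicate 2. The all-spliced share was 74.5% in replicate 1 (73.6 to 75.5%) and 50.8% in replicate 2 (49.3 to 52.3%), a mean of 62.7% ± 16.8 (SD, n = 2 libraries). The intervals of the libraries did not overlap. The difference remained with the genes held the same. With gene as the stratum, the odds of a read being all spliced were 2.69 times as high in replicate 1 as in replicate 2 (Mantel-Haenszel odds ratio, 95% interval 2.44 to 2.95, 811 informative genes), and 2.61 times (2.36 to 2.89) with the place of the 3′ end held as well. The share also varied among the sequencing cells, the separate instrument runs of a library that the read names show. In replicate 1, 4 cells gave 72.6 to 74.6%, and 2 cells with shorter scored reads, at median spans of 342 and 346.5 nt, gave 87.9% and 89.0%. In replicate 2 the cells gave 60.3%, 46.4% and 58.5%, the lowest being the cell with the longest scored reads, at a median span of 846 nt. The part of read length in the shares was not tested.

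The gap between the libraries was wider for ribosomal protein genes than for the others. These genes encode the proteins of the 40S and 60S subunits, are among the most transcribed in growing yeast, and often occur as pairs of near-identical copies. Over 77 of them in replicate 1 the all-spliced share was 86.5% (85.2 to 87.7%), and over 75 in replicate 2 it was 50.7% (47.7 to 53.7%). The other genes had 66.8% (65.5 to 68.2%) in replicate 1 and 50.9% (49.2 to 52.6%) in replicate 2. Over pooled reads, ribosomal protein genes were thus above the other genes in replicate 1 and level with them in replicate 2. Among the 68 deeper genes, the median share of ribosomal protein genes was 89.7% in replicate 1 and 52.6% in replicate 2, against 76.9% in replicate 1 and 65.5% in replicate 2 for the others, so that gene by gene their median was the lower one in replicate 2. The odds of being all spliced were 6.63 times as high in replicate 1 as in replicate 2 for ribosomal protein genes (5.56 to 7.90), and 1.90 times (1.69 to 2.12) for the other genes. Both subunits showed this, with 86.6% in replicate 1 and 45.5% (41.3 to 49.9%) in replicate 2 for small subunit proteins and 86.4% in replicate 1 and 55.5% in replicate 2 for large subunit proteins.

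Gene by gene, the share of replicate 1 was above that of replicate 2 in 59 of the 68 genes, in 38 of 38 ribosomal protein genes and in 21 of 30 others. The median share over the 68 genes was 84.6% in replicate 1 and 59.9% in replicate 2. The order of the genes was hardly shared between the libraries, with a Spearman coefficient of 0.04 over the 68 genes, many of which rest on 10 to 20 reads in replicate 2.

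**Figure D1:**
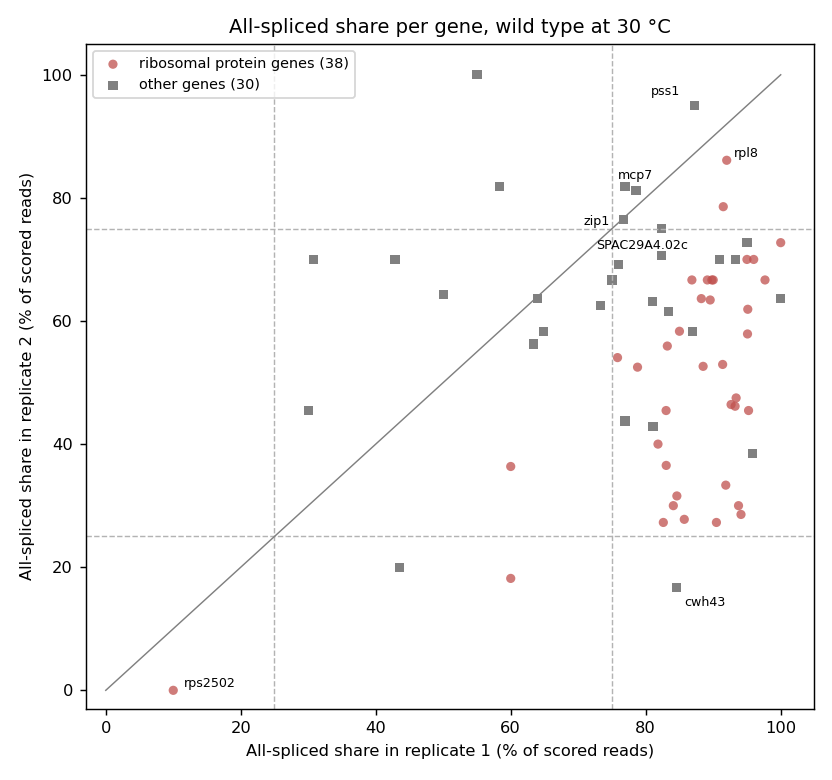
All-spliced share per gene in replicate 1 (x axis) and replicate 2 (y axis), in percent of scored reads, for the 68 genes with at least 10 scored reads in each library. Dashed lines mark 25% and 75%, the solid line marks equal shares, and 59 of the 68 genes lie below it.

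A gene was called mostly spliced at a share of 75% or more and mostly unspliced at 25% or less. In replicate 1, 108 of 153 genes with at least 10 reads were mostly spliced (70.6%) and 3 were mostly unspliced (1.96%). In replicate 2, 9 of 78 genes were mostly spliced (11.5%) and 5 were mostly unspliced (6.41%). Of the 54 genes that were mostly spliced in replicate 1 and deep enough in both, 7 were also mostly spliced in replicate 2 and 35 had a share above 50% there. Over all 68 genes deep enough in both, 9 were mostly spliced in replicate 2. Such genes were thus about as frequent among the 54 as among the 68, and the overlap is close to what unrelated classes would give. The median share in replicate 2 was likewise 59.9% over the 54 genes and 59.9% over the 68. The count of 35 above 50% is thus no sign of agreement between the libraries. In both libraries, 7 genes were mostly spliced, 1 was mostly unspliced, 1 was in opposite classes, and none lay between 40 and 60%.

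Of the 7 genes that were mostly spliced in both libraries, 5 are described, namely rpl8, pss1, mcp7, zip1 and SPAC29A4.02c. The rpl8 gene, for the 60S protein eL8, was the deepest of the 7. It had 115 all-spliced against 10 all-unspliced reads in replicate 1 (92.0%) and 31 against 5 in replicate 2 (86.1%), and its intron of 66 nt follows a first exon of 23 nt.

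The other genes described have unlike roles. The pss1 gene, for a heat shock protein of the Hsp70 superfamily, had 34 all-spliced against 5 all-unspliced reads in replicate 1 (87.2%) and 19 against 1 in replicate 2 (95%). Its intron, 405 nt long, lies in the 5′ untranslated region. The mcp7 gene, whose product acts in meiotic recombination, had 11 against 3 reads in replicate 1 (78.6%) and 39 against 9 in replicate 2 (81.2%). It was the only one of the 7 with more reads in the shallower replicate 2.

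The zip1 gene, for a DNA-binding transcription factor, had 23 all-spliced against 7 all-unspliced reads in replicate 1 (76.7%) and 13 against 4 in replicate 2 (76.5%), again at an intron of the 5′ untranslated region. SPAC29A4.02c, for the gamma subunit of translation elongation factor EF-1, had 14 against 3 reads in replicate 1 (82.4%) and 9 against 3 in replicate 2 (75%), just at the threshold. With so few reads the shares are loose, and the interval for SPAC29A4.02c in replicate 2 ran from 46.8 to 91.1%. Just outside the threshold, with the lower of their shares between 70.6 and 72.7%, lay gua1 (IMP dehydrogenase), rpl2701 (a 60S protein) and rad24 (a 14-3-3 protein).

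The 7 genes varied in their introns, with lengths from 63 to 405 nt and a median of 216 nt, against a median first intron of 97.5 nt and a range of 38 to 441 nt over the 60 genes in neither class. They also had a median of 1243 nt from the last intron to the gene end, against 605.5 nt in those 60 genes, and the ranges, 744 to 2435 nt and 143 to 5098 nt, overlapped. The mix of genes differed as well, with 2 ribosomal protein genes among the 7 and 35 among the 60. The part of this mix in the lengths was not tested.

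The gene rps2502, for the 40S protein eS25, was the only one that was mostly unspliced in both libraries. It had 2 all-spliced and 18 all-unspliced reads in replicate 1 (10%, 2.79 to 30.1%) and 0 and 19 in replicate 2, where a count of 0 still allows a share of up to 16.8% by the Wilson interval. This placing rests on the rule that a read must span the first exon. The first exon of rps2502 is 12 nt long, and 118 reads of the gene in replicate 1 and 26 in replicate 2 began at the second exon, within 5 nt of the 3′ site of intron 1. Of those that went on across intron 2, 64 were spliced and 1 unspliced in replicate 1, and 13 were spliced and 3 unspliced in replicate 2. When reads beginning there were counted as spliced at intron 1, an alternative added after the data were seen, 66 of 84 reads (78.6%) were all spliced in replicate 1 and 13 of 32 (40.6%) in replicate 2. No gene was then mostly unspliced in both.

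Below 50% in both libraries lay, besides rps2502, only stt3 and rrn3. The stt3 gene, for an oligosaccharyltransferase subunit that transfers glycans to proteins, had 10 all-spliced against 13 all-unspliced reads in replicate 1 (43.5%) and 2 against 8 in replicate 2 (20%). The rrn3 gene, for an initiation factor of RNA polymerase I, had 3 against 7 reads in replicate 1 (30.0%) and 5 against 6 in replicate 2 (45.5%). In contrast, 41 genes were above 50% in both libraries. The median share over the 68 genes was itself above 50% in each library, at 84.6% in replicate 1 and 59.9% in replicate 2. The count of 41 therefore says little on agreement between the libraries. The gene in opposite classes was cwh43, annotated as acting in glycosylceramide biosynthesis, with 11 against 2 reads in replicate 1 (84.6%) and 2 against 10 in replicate 2 (16.7%).

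**Figure D2:**
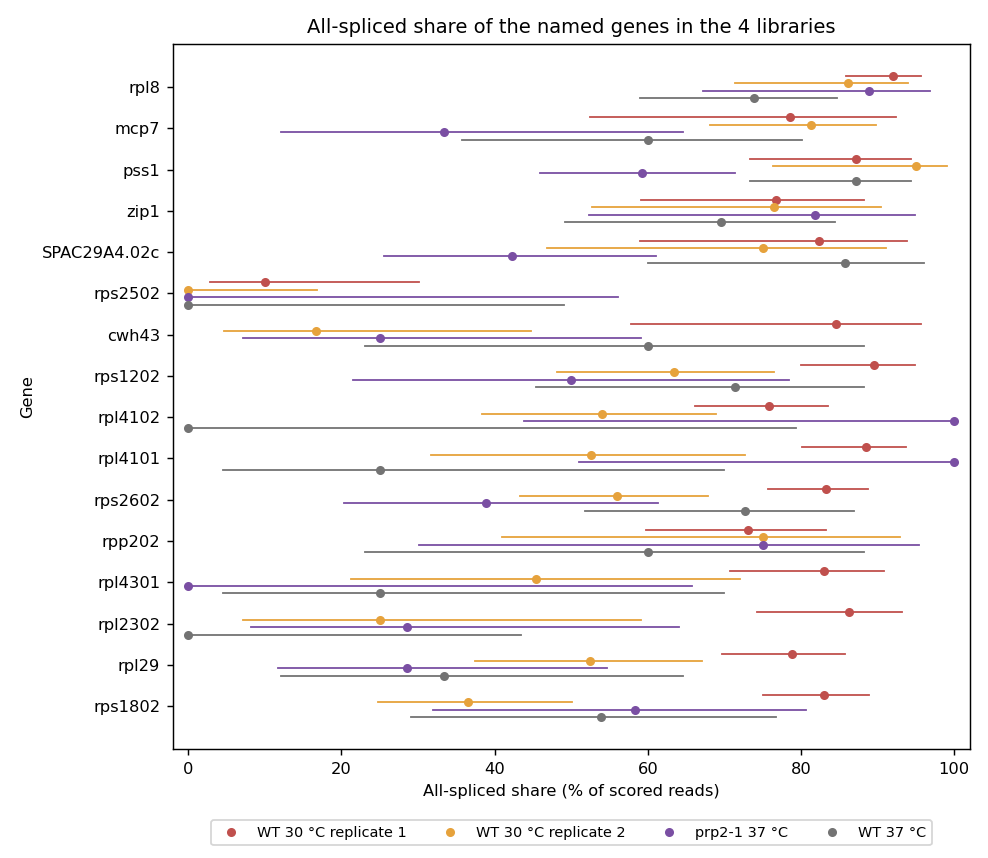
All-spliced share (x axis, percent of scored reads) of the named genes, 1 row per gene, in 4 libraries, with 95% Wilson intervals as bars. The mostly spliced genes are at the top. Under the rule that a read spans the first exon, rps2502 lies at 0 to 10% in every library. The intervals of several genes, among them rps1202, rps2602, rpl2302 and rps1802, lie higher in replicate 1 than in replicate 2 without overlap.

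The libraries shifted to 37 °C had no part in choosing the genes. Over all genes their shares were 33.2% in prp2-1 cells and 54.4% in wild-type cells. Repeated read names were carried by 3194 of 33746 reads of prp2-1 cells and 1558 of 32176 of wild-type cells. All of these reads were kept, and their part in the 37 °C shares was not tested. The pss1 gene had 59.3% in prp2-1 cells and 87.2% in wild-type cells. The rpl8 gene had 88.9% in prp2-1 cells (67.2 to 96.9%) and 73.8% in wild-type cells (58.9 to 84.7%), with overlapping intervals. In prp2-1 cells mcp7 had 33.3%, zip1 81.8% and SPAC29A4.02c 42.3%. In wild-type cells mcp7 had 60%, zip1 69.6% and SPAC29A4.02c 85.7%. The rps2502 gene had no all-spliced read in 3 scored reads of prp2-1 cells and in 4 of wild-type cells. These counts rest on the same first-exon rule. With reads beginning at exon 2 counted as spliced at intron 1, 3 of 6 reads were all spliced in prp2-1 cells and 3 of 7 in wild-type cells.

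Pairs of ribosomal protein paralogues gave a further view of the spread among genes. In 8 pairs both copies were deep enough in both libraries, and in 5 of them the same copy had the lower share in both. This is close to an even split. In the eS24 pair, for example, the order turned. There rps2401 had 90% in replicate 1 and 66.7% in replicate 2, against 94.1% and 28.6% for rps2402. The pairs described next kept their order. In the 60S protein L18 pair, rpl1802 had 60% in replicate 1 and 18.2% in replicate 2, against 86.8% in replicate 1 and 66.7% in replicate 2 for rpl1801. The copies of the eS17 pair were closer in replicate 1, with 91.9% for rps1702 and 96.0% for rps1701, than in replicate 2, with 33.3% for rps1702 and 70.0% for rps1701. The rpl1802 and rps1702 genes have first exons of 14 and 15 nt, so the limit shown for rps2502 touches them too. For rps1702, counting reads that began at exon 2 as spliced gave 94.1% in replicate 1 and 44.7% in replicate 2. Reads of near-identical copies may be aligned to either copy, and how the aligner treated such reads is not given in the sources used here.

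Past the annotated gene end, all-unspliced reads were far more frequent than all-spliced reads in replicate 1 and moderately more frequent in replicate 2. In replicate 1, 61 of 5629 all-spliced reads (1.08%, 0.845 to 1.39%) ended more than 100 nt past the gene end, against 211 of 1922 all-unspliced reads (10.98%, 9.66 to 12.5%). In replicate 2, 101 of 2170 all-spliced reads (4.65%, 3.85 to 5.62%) did so, against 203 of 2098 all-unspliced reads (9.68%, 8.48 to 11.02%). Within genes, the Mantel-Haenszel odds ratio of ending there, all spliced over all unspliced, was 0.0585 in replicate 1 (0.0364 to 0.0942, 101 informative genes) and 0.514 in replicate 2 (0.371 to 0.712, 80 genes). Both intervals lay below 1, and they did not overlap.

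The sequencing cells bear on this result. In replicate 1 the odds ratio with gene and cell as strata was 0.0360 (0.0181 to 0.0720), and in each of the 4 cells that had reads past the gene end it was between 0.00895 and 0.0542. In replicate 2 it was 0.709 with gene and cell as strata, and its interval of 0.484 to 1.04 reached 1, so that within cells the difference of replicate 2 was not past the threshold. The cell with the longest scored reads had 85 of the 101 all-spliced and 173 of the 203 all-unspliced reads past the gene end in replicate 2, with an odds ratio of 0.790 (0.515 to 1.21). At a distance of 200 nt the odds ratio of replicate 2 was 0.829 (0.516 to 1.33).

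**Figure D3:**
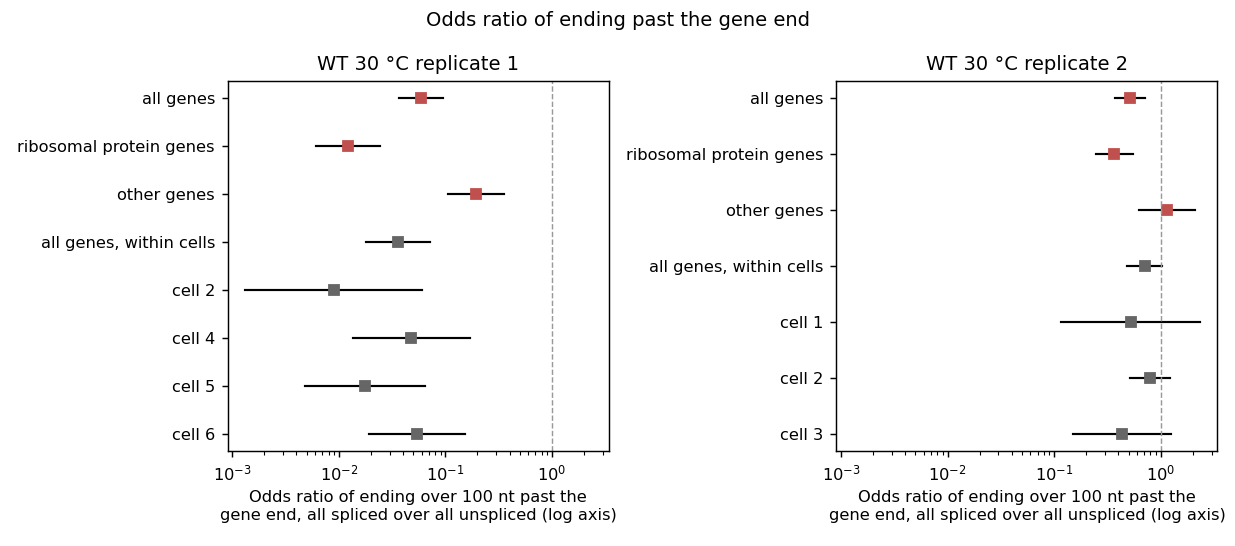
Odds ratio (x axis, log scale) of a read ending more than 100 nt past the gene end, all spliced over all unspliced, with 95% intervals as bars, for all genes, ribosomal protein genes, other genes, all genes with cell as a further stratum, and each sequencing cell with an estimate. Every interval of replicate 1 lies below 1, and in replicate 2 those of all genes and of ribosomal protein genes do.

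The difference in 3′ ends was larger for ribosomal protein genes. In these genes 12 of 2560 all-spliced reads (0.469%) ended past the gene end in replicate 1, against 118 of 400 all-unspliced reads (29.5%), an odds ratio of 0.0122 (0.00607 to 0.0244). In replicate 2 the counts were 42 of 532 all-spliced reads (7.89%) and 115 of 517 all-unspliced reads (22.2%), an odds ratio of 0.368 (0.247 to 0.547). In the other genes the odds ratio was 0.195 in replicate 1 (0.107 to 0.357), from 49 of 3069 all-spliced and 93 of 1522 all-unspliced reads, and 1.15 in replicate 2 (0.628 to 2.12), from 59 of 1638 all-spliced and 88 of 1581 all-unspliced reads. The odds ratio of ribosomal protein genes divided by that of the other genes was 0.0624 in replicate 1 (0.0248 to 0.157) and 0.319 in replicate 2 (0.154 to 0.659). Ribosomal protein genes were short and deeply read, and the part of gene length in this was not tested.

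The place of the 3′ end along the gene showed where the classes parted in replicate 1. Of all-spliced reads 26.3% ended more than 1000 nt before the gene end, against 43.8% of all-unspliced reads. Within 100 nt of the gene end on either side lay 20.1% of all-spliced and 9.001% of all-unspliced reads. The all-spliced share was 63.8% among reads ending over 1000 nt before the gene end, 76.4% from 1000 to 400 nt before it, 84.7% from 400 to 100 nt before it and 86.7% within 100 nt of it, and it was 13.3% among reads ending 100 to 200 nt past it. In replicate 2 the share was 50.9, 50.2, 55.9 and 53.6% in the same 4 places and 27.4% at 100 to 200 nt past the gene end. The place within 100 nt pools both sides of the gene end. Among reads ending 0 to 100 nt past it, the share was already down to 41.7% in replicate 1 (53 all-spliced against 74 all-unspliced reads). In replicate 2 it was 18.4% there (32 against 142 reads, 13.3 to 24.8%), below the value at 100 to 200 nt past. Different genes feed the different places, so these shares are not within-gene values.

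**Figure D4:**
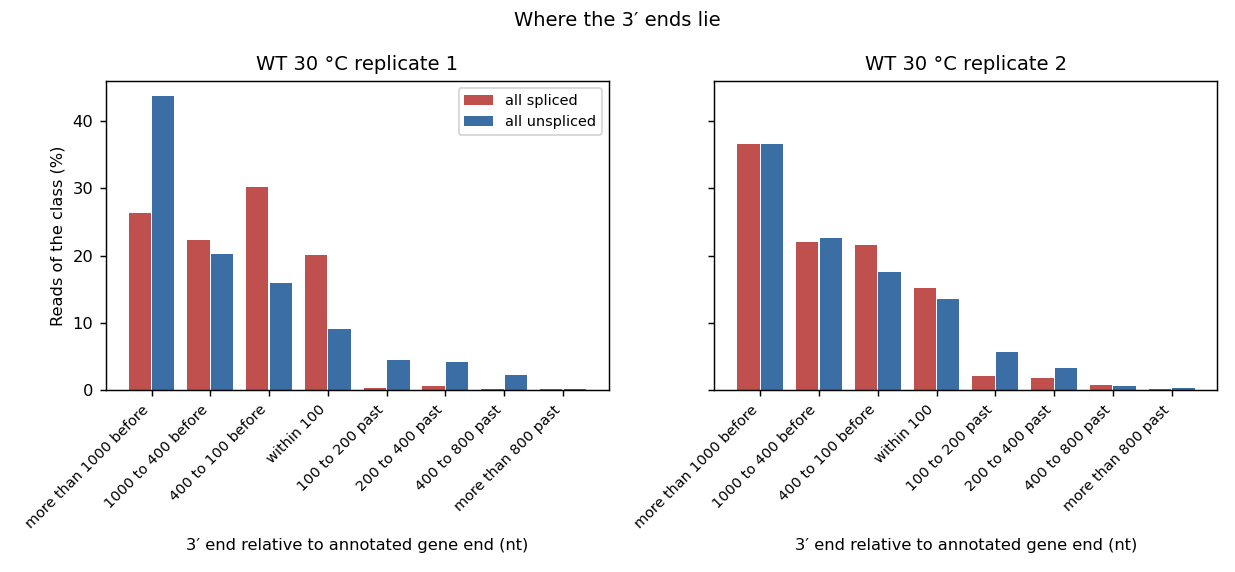
Percent of all-spliced (red) and all-unspliced (blue) reads (y axis) whose 3′ ends fall in each range of distance from the annotated gene end (x axis, nt, from upstream to downstream), for both libraries. All-unspliced reads exceed all-spliced reads in the 2 ranges from 100 to 400 nt past the gene end in both libraries.

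For single genes, Fisher's exact test of ending more than 100 nt past the gene end was run on every gene with at least 5 reads of each class, with Benjamini-Hochberg adjustment over the genes of a library. In replicate 1, 11 of 61 genes were called with a lower share in all-spliced reads (18%) and 0 with a higher share (0%), and 13 genes had an unadjusted p under 0.05. All 11 were ribosomal protein genes, of 30 tested, and at a distance of 200 nt the count of called genes was 3. The other genes tested in replicate 1 had at most 1 read past the end each. Their smallest unadjusted p was 0.176 (Fisher's exact test, rad24). None of them could be called, so the calls do not compare ribosomal protein genes with the others. In replicate 2, 1 of 44 genes was called with a lower share in all-spliced reads (2.27%) and 0 with a higher share (0%), and 4 had an unadjusted p under 0.05. In 23 genes tested in both libraries, the all-spliced share of reads past the end was lower in both for 9 and higher in both for 0. No read of either class lay past the end for 32 of the 61 genes in replicate 1 and 21 of the 44 in replicate 2.

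The gene called in both libraries was rps1202, for the 40S protein eS12. In replicate 1, 0 of 60 all-spliced reads ended more than 100 nt past the gene end, against 6 of 7 all-unspliced reads (Fisher's exact test, adjusted p = 4.28e-06). In replicate 2, 0 of 26 all-spliced reads did so, against 7 of 15 all-unspliced reads (exact test, adjusted p = 0.0126). The median 3′ end of all-spliced reads lay 64.5 nt before the gene end in replicate 1 and 64 nt before it in replicate 2, against 192 nt past it in replicate 1 and 94 nt past it in replicate 2 for all-unspliced reads. The intron shown for this gene, 57 nt long, ends 155 nt before the gene end. The next protein-coding gene on the same strand starts 4704 nt away. The call of replicate 2 did not hold when identical reads were counted once (exact test, adjusted p = 0.0536) or at a distance of 200 nt (adjusted p = 0.939).

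The paralogues rpl4102 and rpl4101, which encode the small 60S protein eL41, behaved alike in replicate 1. For rpl4102, 0 of 69 all-spliced reads ended past the gene end, against 9 of 22 all-unspliced reads (Fisher's exact test, adjusted p = 1.94e-05). For rpl4101 the counts were 1 of 77 all-spliced and 6 of 10 all-unspliced reads (exact test, adjusted p = 5.67e-05). In replicate 2, rpl4102 had 0 of 20 all-spliced against 4 of 17 all-unspliced reads past the end (exact test, adjusted p = 0.5), and rpl4101 had 0 of 10 against 3 of 9 (exact test, adjusted p = 0.719). The direction was the same in replicate 2, but neither gene was called there.

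Among the other genes called in replicate 1, rps2602, for the 40S protein eS26, had 4 of 104 all-spliced against 9 of 21 all-unspliced reads past the end (Fisher's exact test, adjusted p = 0.000141). In replicate 2 it had 7 of 33 all-spliced against 8 of 26 all-unspliced reads, close to level. The rpp202 gene, for the acidic stalk protein P2, had 0 of 38 all-spliced against 7 of 14 all-unspliced reads in replicate 1 (exact test, adjusted p = 0.000313) and 0 of 6 against 2 of 2 in replicate 2, too few to test. Its intron of 46 nt ends only 66 nt before the gene end.

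The rpl4301 gene, for eL43, had 0 of 44 all-spliced against 5 of 9 all-unspliced reads past the end in replicate 1 (Fisher's exact test, adjusted p = 0.000446) and 0 of 5 against 1 of 6 in replicate 2. The rpl2302 gene, for a 60S protein annotated as L23, had 0 of 44 against 4 of 7 in replicate 1 (exact test, adjusted p = 0.00122) and 0 of 2 against 3 of 6 in replicate 2. The rpl29 gene, for L29, had 4 of 78 against 8 of 21 in replicate 1 (exact test, adjusted p = 0.00259) and 3 of 21 against 9 of 19 in replicate 2 (exact test, adjusted p = 0.5).

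The rps1802 gene, for uS13, differed between the libraries. It had 0 of 93 all-spliced against 4 of 19 all-unspliced reads past the end in replicate 1 (Fisher's exact test, adjusted p = 0.00381) and 6 of 19 against 10 of 33 in replicate 2. The 2 remaining calls of replicate 1 were rpl35, with 0 of 85 all-spliced against 3 of 8 all-unspliced reads, and rps21, with 0 of 37 against 3 of 7. In all 11 genes the last intron ended between 66 and 498 nt before the gene end.

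**Figure D5:**
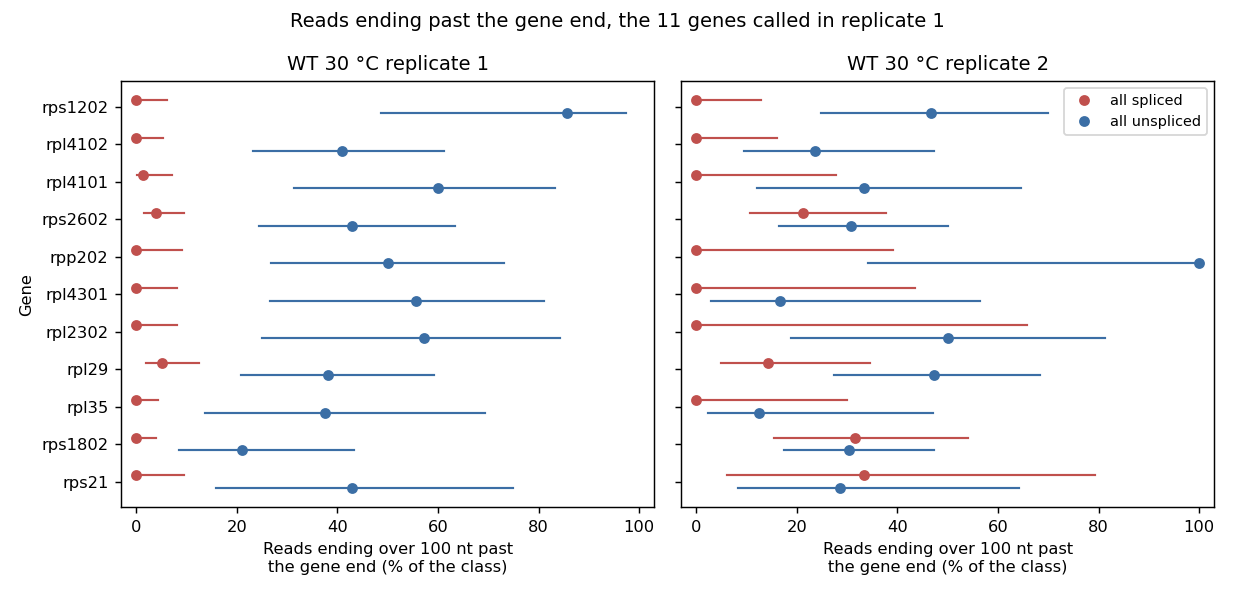
Share of all-spliced (red, upper) and all-unspliced (blue, lower) reads that end more than 100 nt past the gene end (x axis, percent of the class), with 95% Wilson intervals as bars, for the 11 genes called in replicate 1. In replicate 1 the all-spliced points lie at or below 5.13% in every gene, and in replicate 2 rps2602, rps1802 and rps21 have all-spliced points above 20%.

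The rps2502 gene had the most all-unspliced reads past the gene end over both libraries, 12 of 18 in replicate 1 and 9 of 19 in replicate 2, where rps1802 had 10 and rpl29 also had 9. It had too few all-spliced reads to be tested. With reads beginning at exon 2 counted as spliced, 0 of 66 all-spliced against 12 of 18 all-unspliced reads ended past the gene end in replicate 1 (Fisher's exact test, adjusted p = 1.04e-08), and 0 of 13 against 9 of 19 in replicate 2 (exact test, adjusted p = 0.0943). Of the mostly spliced genes, pss1, mcp7, zip1 and SPAC29A4.02c had no read of either class past the gene end in either library. In replicate 2, rpl8 had 5 of 31 all-spliced and 0 of 5 all-unspliced reads there.

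The reads past the gene end came from many genes. In replicate 1, the 61 all-spliced ones lay in 40 genes and the 211 all-unspliced ones in 119 genes. In replicate 2, the 101 all-spliced ones lay in 57 genes and the 203 all-unspliced ones in 107 genes. The median distance past the gene end was 260 nt for all-spliced and 241 nt for all-unspliced reads in replicate 1, and 220 nt and 172 nt for the same classes in replicate 2. The next annotated protein-coding gene on the strand was reached by 17 all-spliced and 23 all-unspliced reads in replicate 1, and by 15 all-spliced and 11 all-unspliced reads in replicate 2. In replicate 1, ribosomal protein genes gave 19.7% of the all-spliced and 55.9% of the all-unspliced reads past the end, against 45.5% of all all-spliced and 20.8% of all all-unspliced reads. In replicate 2 they gave 41.6% of the all-spliced and 56.7% of the all-unspliced reads past the end, against 24.5% of all all-spliced and 24.6% of all all-unspliced reads.

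Inside the gene body, more than 100 nt before the gene end, lay the 3′ ends of 78.8% of all-spliced and 80.0% of all-unspliced reads in replicate 1, and of 80.2% of all-spliced and 76.8% of all-unspliced reads in replicate 2. Within genes, the odds of ending there were higher for all-spliced reads in replicate 1 (odds ratio 1.73, 1.39 to 2.17), and in replicate 2 the odds ratio was 1.06 (0.826 to 1.36). Both values depended on the distance. At 200 nt the odds ratio was 1.18 (0.938 to 1.48) in replicate 1, no longer past the threshold, and 0.737 (0.574 to 0.947) in replicate 2. At 50 nt replicate 1 gave 3.35 (2.66 to 4.23) and replicate 2 gave 1.97 (1.52 to 2.54), both past the threshold. The median 3′ end of all-spliced reads lay nearer the gene start than that of all-unspliced reads in 32 of 61 genes in replicate 1 and 21 of 44 in replicate 2, so the medians of the classes showed no common direction.

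At the other end of the reads, most of both classes began at the annotated start. Within 10 nt of it lay 75.7% of all-spliced and 66.1% of all-unspliced reads in replicate 1, and 72.8% of all-spliced and 69.6% of all-unspliced reads in replicate 2. Starts more than 100 nt upstream were rare, at 1.19% of all-spliced and 3.64% of all-unspliced reads in replicate 1 and 2.40% of all-spliced and 3.96% of all-unspliced reads in replicate 2. In replicate 1 the within-gene odds ratio of such a start was 0.571 (0.324 to 1.01), and 0.566 (0.291 to 1.10) was found for replicate 2. Both intervals reached 1.

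Outside the ribosomal protein genes, small lists of genes chosen by symbol had shares between 41.5 and 83.2%. Translation factors had 83.2% in replicate 1 and 53.4% in replicate 2, and cytoskeleton genes had 76.1% in replicate 1 and 56.2% in replicate 2. Ubiquitin and proteasome genes had 58.7% in replicate 1 and 41.5% in replicate 2, and genes of the spliceosome itself had 62.9% in replicate 1 and 46.0% in replicate 2. Mitochondrial respiration genes had 69.9% in replicate 1 and 45.2% in replicate 2. Each of these lists had a lower share in replicate 2, the shift also seen over all genes. Only for translation factors were the intervals of the libraries apart, at 76.2 to 88.5% in replicate 1 and 42.1 to 64.4% in replicate 2. For the other lists named the intervals overlapped. The smallest count was that of cytoskeleton genes in replicate 2, with 9 all-spliced and 7 all-unspliced reads (33.2 to 76.9%).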

How the data were processed

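The deposited files hold 1 line per aligned read with its chromosome, start, end, strand and blocks, and the authors gave no counts. Per the submitters' processing notes cutadapt 1.8 was used. The aligner, the genome build and the way reads with poly(A) were filtered are not given in the sources used here. Genes and introns came from the RefSeq annotation of build ASM294v3, with the longest transcript per gene, and 19 annotated gaps under 20 nt were left out. Of the gaps in the reads, 91.9% and 87.7% matched its introns in replicates 1 and 2. Reads were sorted and tested with Python 3.11.15, scipy 1.17.1 and statsmodels 0.14.6: Mantel-Haenszel odds ratios with Robins-Breslow-Greenland 95% intervals, and Fisher's exact tests at an adjusted p of 0.05, each library apart, tested on simulated data. P-values and intervals within a library concern its reads, not replicate cultures. The genes named were those in the same or opposite classes in both libraries, those called by the test (up to 6 beyond the one called in both) and the 6 with the most all-unspliced reads past the gene end. The other 2 calls, stt3, rrn3 and the paralogues were named after their values were seen. Members and gene lists were chosen with earlier results of these data known. The genes named by this rule include 2 that are not reported here.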

Additional observations from a re-analysis of the deposited data

Results flagged for a closer look

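The odds ratio of ending past the gene end differed between the libraries: that of replicate 1 divided by that of replicate 2 was 0.114 (95% interval 0.0639 to 0.203), with reads as the units. The libraries differ in strain and in sequencing cells, and these cannot be told apart.

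Reads that crossed every intron of a gene and were spliced at some introns and not at others were outside the comparison. There were 416 of them, 240 in replicate 1 (3.05% of crossing reads) and 176 in replicate 2 (3.93%). The most frequent single form was in rps13, a 40S ribosomal protein gene with 3 introns, where the middle intron alone was unspliced in 11 reads of replicate 1 and 5 of replicate 2. The same gene had 26 all-spliced and 0 all-unspliced reads in replicate 1, and 4 all-spliced and 3 all-unspliced reads in replicate 2.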

How the results depend on the processing

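The alternatives changed the splice site tolerance, the span past each intron, the treatment of identical or repeated reads, the genes kept, the read minimum, the class thresholds and the distance from the gene end. The mean all-spliced share of the libraries moved by less than the spread between them under each alternative, and no read name was repeated in these libraries. That spread is wide (SD 16.8 points), so staying within it says little about robustness. With ribosomal protein genes left out, the share of replicate 1 fell from 74.5 to 66.8%, while that of replicate 2 was 50.8% before and 50.9% after. The odds ratio of ending past the gene end in replicate 1 stayed below 1 with its interval under each. In replicate 2 it was 0.829 at 200 nt, 0.709 with gene and sequencing cell as strata and 0.771 in genes with at least 2 introns, each with an interval that reached 1, and it turned to 1.15 with ribosomal protein genes left out. Odds ratios without replicate 1 or 2 are those of the other library: past the end 0.514 and 0.0585, around a geometric mean of 0.173.

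The count of genes called for ending past the gene end in both libraries was 1, and it was 0 with at least 10 reads of each class, at 200 nt, in genes with at least 2 introns, with identical reads counted once and with ribosomal protein genes left out. Leaving out a replicate gave 1 to 11. In replicate 1 the count of 11 became 7 with at least 10 reads of each class, 3 at 200 nt and 0 in genes with at least 2 introns. It was also 0 without ribosomal protein genes, where no tested gene had more than 1 read past the end. In replicate 2 the count of 1 became 0 at 200 nt, in genes with at least 2 introns, with identical reads counted once and without ribosomal protein genes.

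The 7 genes mostly spliced in both became 26 at 5 reads per gene, 2 at 20 reads, 41 at a threshold of 50%, 0 at 90% and 0 in genes with at least 2 introns, and single libraries gave 9 to 108. The 1 gene mostly unspliced in both became 4 at 5 reads, 3 at 50%, and 0 at 20 reads, with a span of 25 nt, in genes with 1 intron, without ribosomal protein genes, without first exons under 20 nt and with reads starting at exon 2 counted as spliced (both first-exon settings were added after seeing the data). Single libraries gave 3 to 5.

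The odds ratio of ending inside the gene body at 200 nt was 1.18 in replicate 1 (interval reaching 1) and turned to 0.737 in replicate 2. In replicate 2 it was 1.97 at 50 nt, past the threshold, and turned to 0.680 in genes with at least 2 introns. The odds ratio of starting upstream passed the threshold in replicate 1 at 0.388 (200 nt), 0.526 (50 nt), 0.481 (overlapping genes left out), 0.543 (reads starting at exon 2 counted as spliced), 0.561 (ribosomal protein genes left out) and 0.552 (tolerance 0 nt). In replicate 2 it did so at 0.406 (200 nt), 0.497 (first exons under 20 nt left out) and 0.417 (span of 25 nt). The cause was not tested. No paired analysis was possible because the 30 °C libraries form 1 group, with no second group of samples that shares their replicate numbers. The read classes are compared within each library. Depth limits the gene-level values, since 68 genes had 10 reads in both libraries.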

Other observations

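Genes below the depth used for the gene-by-gene account included some seen in 1 class alone. Of the 977 genes with scored reads in both libraries, 54 had no all-spliced read in either and 112 had no all-unspliced read in either. The rps2202 gene, for the 40S protein uS8, had 0 all-spliced against 7 all-unspliced reads in replicate 1 and 0 against 6 in replicate 2, with upper Wilson bounds on the share of 35.4% in replicate 1 and 39.0% in replicate 2. The sua7 gene, for the transcription factor TFIIB, had 0 against 10 in replicate 1 and 0 against 2 in replicate 2, with upper bounds of 27.8% in replicate 1 and 65.8% in replicate 2. In the libraries shifted to 37 °C, sua7 had 0 all-spliced against 16 all-unspliced reads in prp2-1 cells and 1 against 11 in wild-type cells. At the other side, gnd1, for phosphogluconate dehydrogenase, with 4 introns, had 16 all-spliced and 0 all-unspliced reads in replicate 1 and 7 and 0 in replicate 2. These genes were singled out after their values were seen.

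Reads on the strand opposite to a gene that crossed its introns without a gap numbered 123 in replicate 1 and 155 in replicate 2, 6.4% and 7.39% of the all-unspliced reads on the sense strand. Opposite-strand reads with gaps at every intron numbered 2 in replicate 1 and 55 in replicate 2. How the strand of a read was assigned is not given in the sources used here, and the part of such reads in the counts was not tested.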
